A study of Mus musculus with 8 samples.

Results

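The genes described here are 10 transcription factor genes of regulatory T (Treg) cells, Foxp3, Ikzf2, Ikzf4, Gata3, Maf, Irf4, Prdm1, Bach2, Satb1 and Foxo1. They were taken by name from the 19191 genes of an RNA-seq count table, each name matched 1 row, and all 10 passed the filter on low counts. The table holds 4 libraries of Treg cells sorted from the large intestine lamina propria of C57BL/6 mice, 2 per genotype, and the series also has 4 ATAC-seq samples, which were not analysed here. The libraries called WT came from Ahrf/+ Foxp3Yfp-Cre mice and those called KO from Ahrf/- Foxp3Yfp-Cre mice. Both genotypes therefore carried a floxed allele of Ahr, the aryl hydrocarbon receptor gene, and a Cre recombinase driven by the Foxp3 locus, which is on in Treg cells. They differed in the other Ahr allele, intact in WT and null throughout the body in KO, so the WT cells are not Ahr-complete and cells around the KO Treg cells also lacked 1 copy. The labels used here do not name the sort gate, and if Foxp3 or its reporter defined the gate, the gate itself could set the Foxp3 level. The question of the comparison is which of these factors differ in level when gut Treg cells lose Ahr.

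Treg cells are CD4 T cells that suppress immune responses, and Foxp3, a forkhead factor, defines them and maintains their state. Helios (encoded by Ikzf2) and Eos (Ikzf4) are Ikaros family zinc finger proteins that act beside Foxp3. GATA3, c-Maf (Maf), IRF4 and Blimp-1 (Prdm1) shape Treg cells in tissues such as the gut, where the activated, effector form predominates. Bach2, Satb1 and Foxo1 are best known from resting or developing T cells, and Bach2 and Foxo1 restrain the effector form. Ahr is a ligand-activated factor that pairs with Arnt and binds DNA at sites with the core GCGTG.

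Because the genotypes differ in Ahr, the letters of that core were searched in the 250 bases before each annotated gene start, on both strands, using RefSeq windows (build GRCm38.p6). Of the 10 genes, 7 had windows, 12 in all, and Ikzf2, Ikzf4 and Maf had no entry. The core was found in 6 of the 12 windows, which belong to Foxp3, Irf4, Prdm1, Satb1 and Foxo1, and not in those of Gata3 and Bach2. Among all 32851 windows of that length 28.2% held the core, and among the 12423 windows of tested genes 42.7% did. Counted by gene, 5 of 7 factors had it in at least 1 window, against 48.2% of the 9745 tested genes with a window. The longer form TNGCGTG, which contains the core, was found in 1 of the 12 windows, at Foxp3, and in 6.25% of the windows of tested genes. The letters TGTTTAC of a forkhead core were found in 1 of the 12 windows, at Prdm1 (2.17% of the windows of tested genes), and AGATAA of a GATA core in 1, at the second Foxp3 start (6.14%), where its first base is the last of the longer Ahr form. The windows shown are those of Foxp3, the gene that defines the cells, and the windows with the core of Prdm1 and Satb1, the genes whose KO libraries both lay above both WT libraries. Each is written 5′ to 3′ on the strand of its gene, with the core in capitals, here always as CACGC because every match was on the opposite strand.
Foxp3, first start, plus strand, chrX:7579426-7579675: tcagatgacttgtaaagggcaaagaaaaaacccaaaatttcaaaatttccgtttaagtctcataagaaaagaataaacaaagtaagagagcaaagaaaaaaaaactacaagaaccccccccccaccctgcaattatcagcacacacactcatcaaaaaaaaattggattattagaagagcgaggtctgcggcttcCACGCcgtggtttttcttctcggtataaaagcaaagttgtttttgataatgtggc
Foxp3, second start, plus strand, chrX:7580233-7580482: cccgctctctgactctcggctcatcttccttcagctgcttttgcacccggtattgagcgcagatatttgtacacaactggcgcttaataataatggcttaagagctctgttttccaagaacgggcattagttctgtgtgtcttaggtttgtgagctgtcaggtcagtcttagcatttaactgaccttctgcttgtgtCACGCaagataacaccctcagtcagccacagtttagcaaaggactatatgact
Prdm1, minus strand, chr10:44458749-44458998: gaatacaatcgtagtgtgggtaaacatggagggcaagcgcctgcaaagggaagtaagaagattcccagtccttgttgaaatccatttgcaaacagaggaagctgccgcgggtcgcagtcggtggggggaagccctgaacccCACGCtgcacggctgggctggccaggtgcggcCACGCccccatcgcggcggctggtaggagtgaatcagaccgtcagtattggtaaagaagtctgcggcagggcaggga
Satb1, 1 of 5 annotated starts, minus strand, chr17:51832648-51832897: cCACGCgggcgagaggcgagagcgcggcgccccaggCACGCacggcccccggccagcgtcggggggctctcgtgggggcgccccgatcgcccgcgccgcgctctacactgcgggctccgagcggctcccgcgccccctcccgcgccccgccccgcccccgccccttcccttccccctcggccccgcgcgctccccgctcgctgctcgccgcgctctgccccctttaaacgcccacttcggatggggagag
The cores began 55 and 53 bases before the start in the Foxp3 windows, the second of them in the longer form, and 109 and 77 bases before it in the Prdm1 window. In the Satb1 window they began 249 and 214 bases before the start, in a stretch of 80.8% G and C, against a median of 52.4% over all windows. A match of letters is a description and not a binding site, and no binding data were used here.

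No change of any of the 10 factors passed the main test between KO and WT, which takes no account of the replicate number. A fit that does so called 1 factor, Satb1, beside 458 of all 14274 tested genes. That fit is described under the dependence on the processing. The main test, the quasi-likelihood test of edgeR, called 0 of the 10 at a Benjamini-Hochberg adjusted p under 0.05, and every adjusted p was 1.00. The same test called 0% of all 14274 tested genes, so it separates no gene from the rest. At an unadjusted p under 0.05 it took 0 of the 10 factors and 2.85% of all tested genes. DESeq2 also called 0 of the 10 (0.267% of all genes with an adjusted p), limma-voom called 0 of the 10 (0% of tested genes), and in the authors' deposited table every factor had an adjusted p of 0.889 (0.344% of its genes were under 0.05). Of the 10 factors 5 had a log2 fold change above 0 (52% of all tested genes) and 5 below, with a median of -0.0023, beside 0.01 over all tested genes. A log2 fold change is positive where KO is higher, and its error is the standard error. Whether each library came from its own animals is not in the labels, so the spread behind the p-values may be technical only. Bulk libraries also do not tell fewer cells of a type from less RNA per cell.

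**Figure D1:**
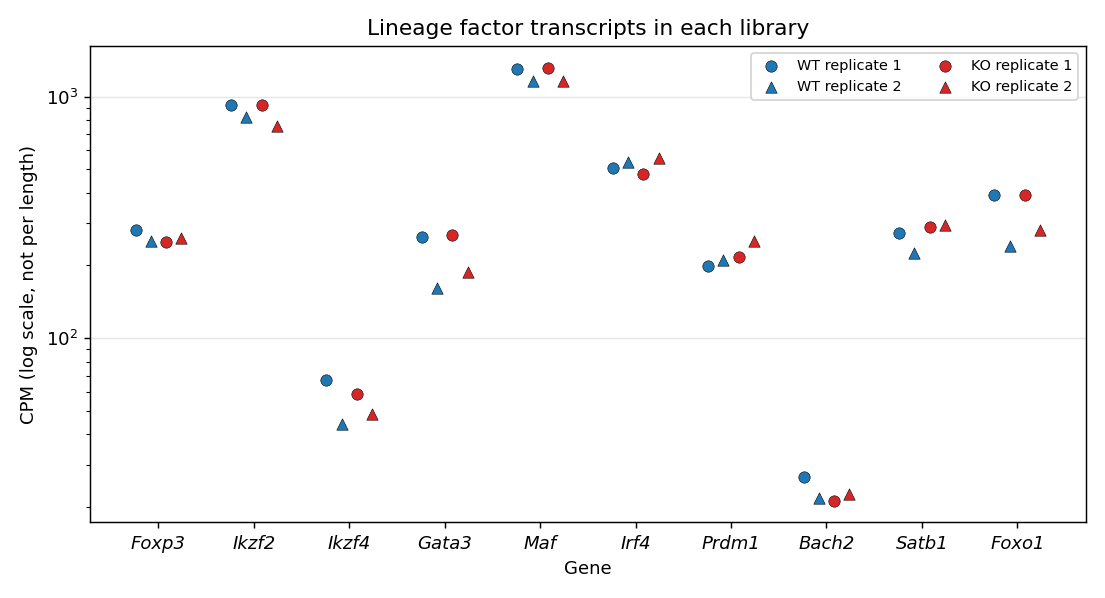
CPM (counts scaled to library size, log axis) of the 10 factors in each of the 4 libraries, with WT in blue, KO in red, circles for replicate 1 and triangles for replicate 2. The symbols of WT and KO overlap for 8 genes, while both KO symbols lie above both WT symbols for Prdm1 and Satb1.

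The libraries held 26862922 to 62402450 counts, with replicate 2 the deeper one in both genotypes. Ahrr, the repressor gene that Ahr induces, stood at 7.30 and 6.55 CPM in WT and at 0.391 and 0.265 CPM in KO, while the level over the whole Ahr gene (581 and 539 CPM in WT, 536 and 518 CPM in KO) does not show single exons and so checks no deletion. CPM is the count per 1000000 counts of the scaled library and is not corrected for transcript length, so levels are compared between libraries and not between genes. Of 14 T cell and Treg markers 13 were in the table and none was at 0 in any library, with Cd4 at 1043 to 1234 CPM and Ctla4 at 3045 to 3773 CPM. The summed CPM of other cell types ran from 15.4 to 21.9 for 9 CD8 and cytotoxic markers, 21.3 to 27.7 for 8 B cell markers and 36.5 to 47.1 for 7 dendritic cell markers. The 8 innate lymphoid markers summed to 376 to 465 CPM, of which Il7r, also made by T cells, had 217 to 292 CPM. The 7 mast cell and basophil markers in the table summed to 12.4 and 11.7 CPM in WT and to 6.49 and 5.52 CPM in KO, most of it Kit, a receptor that other cells also make, while Fcer1a was at 0 in all 4 libraries. Kit alone was at 12.3 and 10.7 CPM in WT and at 6.16 and 4.92 CPM in KO, and DESeq2 called it lower (-1.06 ± 0.26, adjusted p = 0.0294, and 0.263 to 1.00 with 1 library left out). The 11 epithelial markers summed to 19.7 and 19.8 CPM in WT and to 20.0 and 31.3 CPM in KO. Of the 9 tested, KO lay above WT without overlap for 6 and below it for 2, beside 13.5% and 13.4% of all tested genes. The log2 fold changes of these markers ran from -0.53 to 4.89, with a median of 1.32. DESeq2 called 1 of them, the keratin gene Krt8, which was at 0 and 0.126 CPM in WT and at 1.01 and 3.86 CPM in KO (adjusted p = 8.00e-04, and 0.0442 to 1.00 with 1 library left out), and 3 were under 0.05 in the authors' deposited table. The part of these cells in the values of the 10 factors was not tested.

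Foxp3 was measured with the smallest standard error of the 10 genes, and its libraries overlapped. It stood at 279.6 and 252 CPM in WT replicates 1 and 2 and at 250.1 and 259 CPM in KO replicates 1 and 2. The highest and the second lowest value both belonged to WT. The log2 fold change was -0.06 ± 0.09, and the 95% interval of the fold of KO over WT ran from 0.816 to 1.13. Within replicate 1 the log2 ratio of KO over WT was -0.16 and within replicate 2 it was 0.04. The 3′ end of the gene (chromosome X, 7156802 to 7172369, mm9, plus strand) overlaps Ccdc22 on the other strand by 1435 bases. Ccdc22 held 9.70% to 11.7% of the Foxp3 count in each library, and reads of the overlap cannot be assigned to either gene with certainty.

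Helios and Eos, the Ikaros partners of Foxp3, did not separate the genotypes. Ikzf2 (chromosome 1, 69577788 to 69732534) stood at 919 and 819 CPM in WT and at 923 and 752 CPM in KO. Its highest and its lowest value were both in KO, and replicate 1 was the higher library in each genotype. The log2 fold change was -0.05 ± 0.13, with a 95% interval of -0.39 to 0.28. Ikzf4 (chromosome 10, 128067899 to 128083047) stood at 66.8 and 44.0 CPM in WT and at 58.8 and 48.4 CPM in KO. Both KO values lay between the WT values, and the log2 fold change was -0.05 ± 0.22 (-0.60 to 0.51). The other 3 Ikaros genes had no call either. Ikzf1, the founding member, stood at 348 and 359.5 CPM in WT against 387 and 393 CPM in KO (0.14 ± 0.08), Ikzf3 (Aiolos) had -0.09 ± 0.12 and Ikzf5 had 0.03 ± 0.11.

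Of the tissue and effector factors, GATA3 and c-Maf had overlapping libraries. Gata3, the type 2 factor that also marks a share of gut Treg cells (chromosome 2, 9778705 to 9811661), stood at 262 and 161 CPM in WT and at 266 and 188 CPM in KO. The libraries paired by replicate number rather than by genotype, with both replicate 1 libraries high. Its log2 fold change of 0.10 ± 0.27 had the widest 95% interval of the 10, -0.58 to 0.79 on the log2 scale, the upper end of which is a fold of 1.72. The main test takes no account of the replicate number, so the difference between replicates is part of this width. Annotated transcripts inside Gata3, 4930412O13Rik on the other strand and 9230102O04Rik on the same strand, held 2.16% to 3.83% and 1.67% to 3.16% of the Gata3 count. Of the other GATA genes only Gata1 passed the filter, at 1.94 and 3.31 CPM in WT against 1.63 and 1.42 CPM in KO (-0.80 ± 0.37), while Gata2, Gata4, Gata5 and Gata6 stayed under 0.5 CPM in every library. Maf (chromosome 8, 118206842 to 118231694), which drives Il10 in T cells, stood at 1296 and 1158 CPM in WT and at 1317 and 1156 CPM in KO. The genotypes matched closely within each replicate number, with log2 ratios of 0.02 and -0.0024, and the log2 fold change was 0.01 ± 0.12 (-0.28 to 0.30).

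IRF4, which activated T cells need to become effector Treg cells, also overlapped, and Blimp-1, which acts with it, did not. Irf4 (chromosome 13, 30841095 to 30858796) stood at 508 and 536 CPM in WT and at 478 and 554 CPM in KO, so that both WT values lay between the KO values. Its log2 fold change was -0.02 ± 0.11, with a 95% interval of -0.28 to 0.25. Prdm1 (chromosome 10, 44156983 to 44178554) stood at 199 and 212 CPM in WT and at 218 and 251 CPM in KO. Both KO libraries were above both WT libraries, by a narrow gap between WT replicate 2 and KO replicate 1. Its log2 fold change of 0.19 ± 0.11 (interval -0.07 to 0.45 at 95%) split into 0.13 within replicate 1 and 0.25 within replicate 2, and edgeR gave an unadjusted p of 0.123 and an adjusted p of 1.00. Without KO replicate 2 the value was 0.08 and without KO replicate 1 it was 0.28. Plasma cells also make Prdm1 and Irf4. The 6 plasma cell markers in the table summed to 387 and 506 CPM in WT and to 390.5 and 624 CPM in KO, most of it Igj and Xbp1, and Sdc1, a surface marker of these cells, stood between 6.03 and 8.71 CPM. Their part in the Prdm1 and Irf4 values was not tested.

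**Figure D2:**
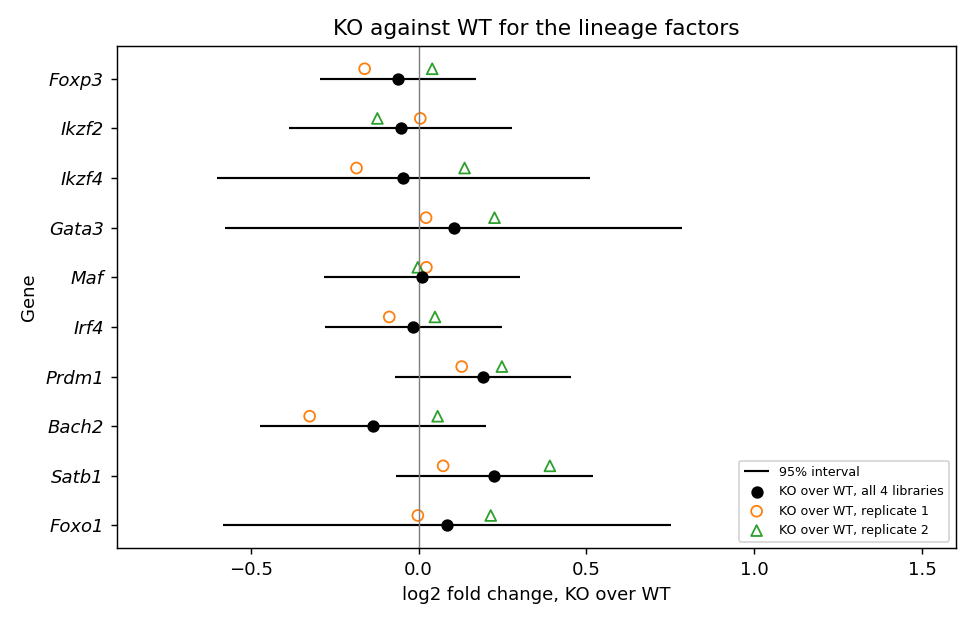
Log2 fold change of KO over WT (horizontal axis) for each of the 10 factors (vertical axis), as the value over all 4 libraries (black dots) with its 95% interval (bars) and as the ratio within replicate 1 (open circles) and within replicate 2 (open triangles). Every bar crosses 0, and the Satb1 and Prdm1 bars reach least far below it.

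The 3 factors of resting T cells had log2 fold changes of both signs. Bach2, a repressor of effector genes that include Prdm1 (chromosome 4, 32325779 to 32673083), stood at 26.7 and 21.9 CPM in WT and at 21.3 and 22.7 CPM in KO. WT replicate 1 was the high library and the other 3 lay close together. KO over WT gave a log2 fold change of -0.14 ± 0.13 (interval -0.47 to 0.20 at 95%), or -0.32 within replicate 1 and 0.06 within replicate 2. Bach2 encloses the transcript D130062J21Rik on the same strand, which held 39.7% to 45.8% of the Bach2 count, so the Bach2 value is uncertain wherever reads of the overlap were shared or set aside. Satb1, a chromatin organizer that Foxp3 lowers in Treg cells (chromosome 17, 51875512 to 51972615), stood at 274 and 224 CPM in WT and at 288 and 294 CPM in KO. Both KO libraries were above both WT libraries, and WT replicate 2 was the low one. The log2 fold change of 0.23 ± 0.12 was the highest of the 10 (95% interval -0.07 to 0.52), with 0.07 within replicate 1 and 0.39 within replicate 2. In the main test, without the replicate number, edgeR gave an unadjusted p of 0.108 and an adjusted p of 1.00. Without WT replicate 2 the value was 0.09, and without WT replicate 1 it was 0.37.

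Foxo1, the forkhead factor that keeps homing and survival genes on in resting T cells (chromosome 3, 52072259 to 52154031), stood at 391 and 241 CPM in WT and at 390.2 and 279.7 CPM in KO. Replicate 1 was the high library in both genotypes and the genotypes matched there (log2 ratio -0.0022). Over all 4 libraries the log2 fold change was 0.09 ± 0.27, with a 95% interval of -0.58 to 0.75. The relatives of Foxp3 and Foxo1 were called by no tool, with log2 fold changes of -0.08 ± 0.12 for Foxp1, -0.02 ± 0.23 for Foxp4, 0.03 ± 0.11 for Foxo3 and 0.02 ± 0.10 for Foxo4. Foxp2 stayed under 0.5 CPM in every library, and its log2 fold change was 0.25 ± 0.65.

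The genotypes did not overlap for 2 of the 10 factors, Prdm1 and Satb1, both with KO above WT. Among all tested genes KO lay above WT without overlap in 13.5% and below it in 13.4%, together 27%. With 2 libraries a side, 2 of 10 is near that background and is no result about the factors.

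For several of these genes the values differed more between replicate numbers than between genotypes. Replicate 2 differed from replicate 1 in the same direction in both genotypes for 7 of the 10 factors, beside 69.9% of tested genes. For 5 of them, Ikzf2, Ikzf4, Gata3, Maf and Foxo1, the difference between replicates was larger in both genotypes than either ratio of KO over WT, beside 30% of tested genes. Those 5 were lower in replicate 2, by the most for Gata3 (log2 difference -0.71 in WT and -0.50 in KO), Foxo1 (-0.70 and -0.48) and Ikzf4 (-0.60 and -0.28). Irf4 (0.08 and 0.21) and Prdm1 (0.09 and 0.21) were higher in replicate 2. Foxp3, Bach2 and Satb1 were lower in replicate 2 in WT (-0.15, -0.29 and -0.29) and higher in KO (0.05, 0.10 and 0.03). The median size of the difference between replicates over the 10 factors was 0.23 in WT and 0.21 in KO on the log2 scale, and the median size of the log2 fold change of KO over WT was 0.07. Over all tested genes these medians were 0.19, 0.19 and 0.10.

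**Figure D3:**
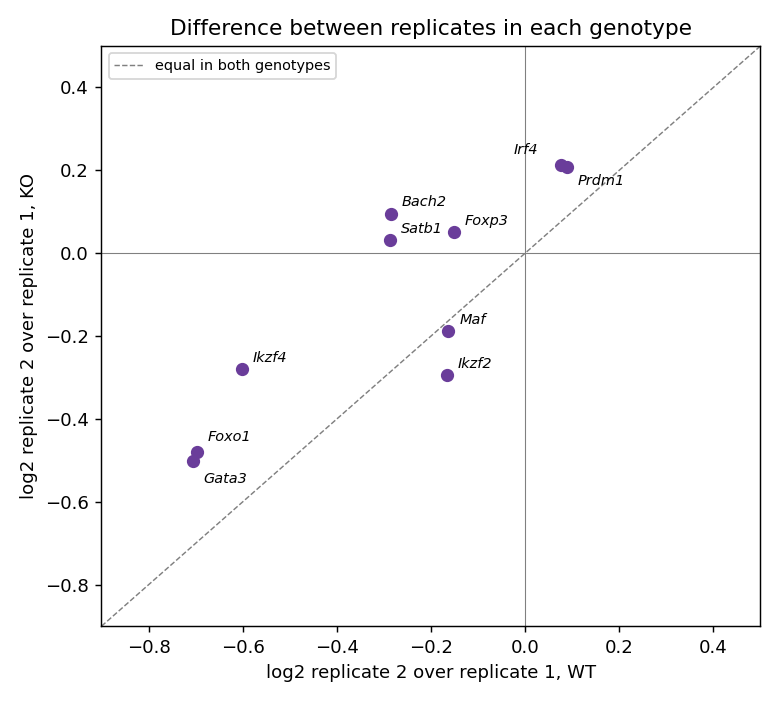
Log2 ratio of replicate 2 over replicate 1 in WT (horizontal axis) and in KO (vertical axis), 1 dot per factor, with a dashed line where both genotypes are equal. Gata3, Foxo1 and Ikzf4 lie far into the lower left, Irf4 and Prdm1 in the upper right, and Bach2, Satb1 and Foxp3 change sign between genotypes.

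The sums of macrophage markers and of stromal and endothelial markers moved with the replicate number too. The 11 macrophage markers, among them Csf1r and the complement genes C1qa, C1qb and C1qc, summed to 161 and 68.9 CPM in WT and to 117 and 49.0 CPM in KO, higher in replicate 1 as were Gata3, Foxo1 and Ikzf4. None of the macrophage markers was at 0. Between genotypes 9 of the 11 had a log2 fold change below 0 (median -0.60), KO and WT overlapped for all 11, and no tool called any. The 9 stromal and endothelial markers summed to 121 and 174 CPM in WT and to 116 and 182 CPM in KO, higher in replicate 2, with Col3a1 at 5.55 and 37.8 CPM in WT against 4.01 and 44.8 CPM in KO. Lars2, a mitochondrial tRNA synthetase gene, held 0.0367% and 1.66% of counts in WT replicates 1 and 2 and 0.0633% and 0.724% in KO replicates 1 and 2, with WT replicate 2 the highest. The part of these cells, of depth or of RNA quality in the difference between replicates was not tested.

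Ratios between factors within a library, in which transcript length cancels from library to library, differed from pair to pair. The log2 ratio of Foxo1 to Prdm1 counts, a resting against an effector factor, was 0.97 and 0.19 in WT and 0.84 and 0.15 in KO, high in replicate 1 and low in replicate 2. That of Gata3 to Prdm1 was 0.40 and -0.40 in WT and 0.29 and -0.42 in KO, also low in replicate 2. Bach2 to Prdm1 gave -2.90 and -3.27 in WT and -3.35 and -3.47 in KO, lower in KO and in replicate 2. Ikzf2 to Foxp3 gave 1.72 and 1.70 in WT and 1.88 and 1.54 in KO, which separated neither. That of Irf4 to Prdm1 was 1.35 and 1.34 in WT and 1.14 and 1.14 in KO, which separated the genotypes and not the replicates. That of Satb1 to Foxp3 was -0.03 and -0.17 in WT and 0.20 and 0.18 in KO. All 6 pairs computed are given. They were chosen after the values of these genes were seen, so the ratios are descriptions with no test. Each pair that separated the genotypes holds Prdm1 or Satb1, the factors whose KO and WT libraries did not overlap. All pairs except Ikzf2 to Foxp3 hold Prdm1 or Satb1. The share of all gene pairs that separate the genotypes was not computed.

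The main edgeR test called 0 of all 14274 tested genes, so no list of genes around the lineage factors could hold a call by it. Even Ahrr, at a log2 fold change of -4.42, had an edgeR adjusted p of 0.218. Of 31 partners and inducers of Foxp3, such as Runx and NFAT factors and enzymes of DNA methylation, 19 had a log2 fold change above 0 and 12 below, with a median of 0.02. The lowest p among them belonged to Smad3, which carries TGF-beta signals to Foxp3 (0.25 ± 0.11), and to Tet2, a DNA demethylating enzyme (-0.21 ± 0.14). Of 16 factors of effector Treg cells 11 were above 0 (median 0.07). DESeq2 called 1 of these, Tbx21, the gene of T-bet, a Th1 factor (DESeq2 log2 fold change 0.89 ± 0.22, adjusted p = 0.0337, lost at 1.00 when WT replicate 1 or KO replicate 2 was left out, with values of 0.70 and 0.62). Myb (0.38 ± 0.11) and Pparg (0.64 ± 0.20) came next by p and were called by no tool. Of 12 factors of resting T cells, 3 of which are among the 10, 6 were above 0 (median 0.03), and the TCF-1 gene Tcf7 had -0.18 ± 0.09. Among 9 IRF genes 4 were above 0 (median -0.02), and Irf8 stood at 33.8 and 43.8 CPM in WT against 45.3 and 63.9 CPM in KO (0.49 ± 0.21). Among 9 genes of the Maf and Bach families 7 were above 0 (median 0.09), with Bach1, a heme-sensing relative of Bach2, at 0.20 ± 0.13. Among 9 genes of the Prdm family, Prdm1 included, 5 were above 0 (median 0.06). Of 9 tested Ahr partners and induced genes 2 were above 0 and 7 below. Tiparp was among the 7, at 403 and 354 CPM in WT and at 271 and 278 CPM in KO (-0.46 ± 0.10). In the authors' deposited table Tiparp (adjusted p = 0.0116) and Ahrr (1.32e-08) were under 0.05, and Arnt2 (0.0565) was not. DESeq2 did not call Tiparp (adjusted p = 0.0723). It called Ahrr (-4.44 ± 0.46, adjusted p = 3.11e-18) and Arnt2 (0.69 ± 0.13, adjusted p = 2.01e-04). The Ahrr call held with each library left out, and the Arnt2 call was lost with any of them left out (adjusted p = 0.104 to 1.00), at log2 fold changes of 0.64 to 0.74.

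Genes that the lineage factors control gave these counts. The lists were chosen with earlier results of these data known, so their counts and calls are descriptions. Of 16 genes that Foxp3 binds and raises in Treg cells 10 were above 0 and 6 below, with a median of 0.01, and no tool called any. The lowest p belonged to Entpd1, an enzyme that degrades extracellular ATP (0.42 ± 0.12), and Ctla4, an inhibitory receptor (0.24 ± 0.10). Of 10 genes that Foxp3 lowers, Satb1 included, 7 were above 0 and 3 below, with a median of 0.18. DESeq2 called 1 of them, Ifng, the interferon gamma gene (DESeq2 log2 fold change 0.95 ± 0.25, adjusted p = 0.0497, likewise lost at 1.00 when either of those libraries was left out, with values of 0.73 and 0.60). Dusp6, a MAP kinase phosphatase (0.37 ± 0.14), and Pde3b, a phosphodiesterase (0.27 ± 0.12), were not called. Of 13 Foxo1 targets 7 were above 0 and 6 below (median 0.04), and their values ran from -0.15 ± 0.11 for Sesn1 to 0.24 ± 0.10 for Ctla4.

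Among targets of the effector factors and of Bach2, DESeq2 called Itgae lower and S100a4, Ifng and Il21 higher in KO. The main edgeR test, which called no tested gene, called none of these targets. In the authors' deposited table Itgae (adjusted p = 7.77e-06), Ifng (0.0364) and the effector factor Tbx21 (0.0135) were under 0.05. There S100a4 (0.118) and Il21 (0.181) were not. Of 13 Blimp-1 targets 3 were above 0 and 10 below (median -0.08), with Ccr6, the receptor for Ccl20, at 18.7 and 16.4 CPM in WT against 12.0 and 11.3 CPM in KO (edgeR log2 fold change -0.59 ± 0.13, DESeq2 adjusted p = 0.665). Of 13 Bach2 targets 10 were above 0 and 3 below (median 0.13), and DESeq2 called 2 of them in opposite directions. Itgae, the integrin chain CD103, had a DESeq2 log2 fold change of -0.82 ± 0.17 (adjusted p = 0.00120), with -0.63 (adjusted p = 0.461) when WT replicate 1 was left out and -0.69 (0.999) when KO replicate 2 was. S100a4, a calcium-binding protein of effector T cells, stood at 223 and 299 CPM in WT and at 392 and 417 CPM in KO (DESeq2 log2 fold change 0.63 ± 0.16, adjusted p = 0.0423). Leaving out WT replicate 1 (1.00), KO replicate 1 (0.396) or KO replicate 2 (1.00) ended the S100a4 call, and leaving out WT replicate 2 (7.94e-04) did not, with values from 0.44 to 0.85. Of 11 c-Maf targets 5 were above 0 and 6 below (median -0.0026), and DESeq2 called Il21 (DESeq2 log2 fold change 0.89 ± 0.22, adjusted p = 0.0268). Its adjusted p rose to 1.00 whichever library was left out, while the log2 fold change stayed at 0.86 to 0.92. Of 11 GATA3 targets 8 were above 0 (median 0.11), with Ccr8, a chemokine receptor, at 252 and 242 CPM in WT and at 319 and 297 CPM in KO (0.32 ± 0.09), and no tool called any. Of 13 IRF4 targets 9 were above 0 (median 0.06), with Cxcr3 at 0.48 ± 0.14, and no tool called any. These counts and medians stand beside 7424 of 14274 tested genes above 0, a median of 0.01 over all tested genes and the 0.267% that DESeq2 called. The lists share genes, so their counts are not independent of each other. Apart from those of Foxp3, the target lists do not separate genes that a factor raises from genes that it lowers. Their counts therefore do not measure the activity of a factor.

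**Figure D4:**
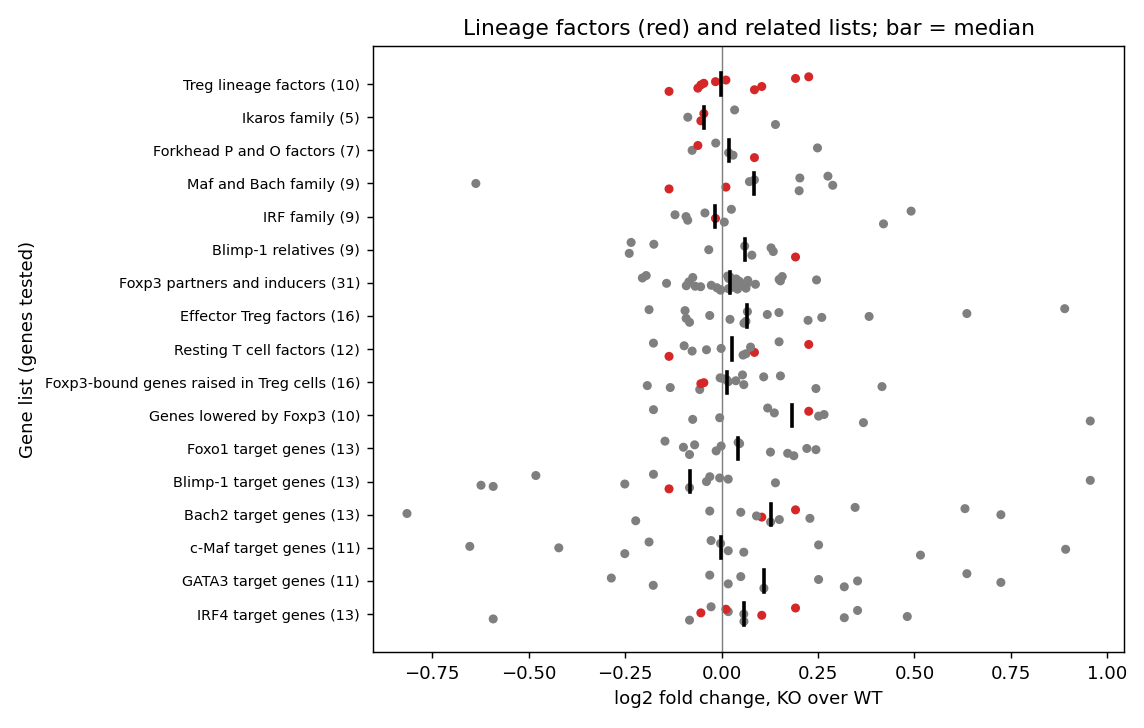
Log2 fold change of KO over WT (horizontal axis) for the tested genes of the factor list and of 16 related lists (vertical axis, number of genes tested in brackets), with the 10 lineage factors in red, other genes in grey and a bar at each median. The factors lie between -0.14 and 0.23, while grey dots of the target lists reach from -0.82 to 0.96.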

How the data were processed

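RNA-seq reads of sorted Treg cells (total RNA, ribosomal RNA removed, 50 bp single-end, per the labels' protocols) were counted per gene by the authors. The deposited counts are whole numbers without normalization, and the same deposited table gives adjusted p-values, read here as those of KO against WT. TopHat2, DESeq and build mm9 are named per the submitters' processing notes, while the use of strand, the annotation and the counter were not given in the sources used here. Libraries were grouped by genotype, 2 each, with totals of 26862922 to 62402450, and columns were matched by title.

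KO and WT were compared with edgeR 4.0.16 under R 4.3.3, by its quasi-likelihood test without covariates, after filterByExpr (14274 genes kept), TMM scaling and Benjamini-Hochberg adjustment over all tested genes, with a threshold of 0.05. The common dispersion was 0.0328. Log2 ratios of single libraries used log2 CPM and a prior count of 2. DESeq2 1.42.0, limma 3.58.1 (voom), other scaling and filters, robust and newer dispersion estimates, a replicate block and leaving out each library were alternatives. DESeq2 without single libraries was added after seeing the data.

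The 10 members and the 19 function and 10 marker lists were chosen with earlier results of these data known. All 10 members are named. From each list, up to 4 other genes of lowest p, family relatives of a member, Ahr and Ahrr could be named, and not all are reported. The choice of other marker genes to name followed their values. Of 250 listed genes 245 were in the table. Scripts were tested on simulated data that held no difference between replicate numbers, so the simulation does not show the error of the tests in these data. Bases of promoters came from RefSeq windows (GRCm38.p6).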

Additional observations from a re-analysis of the deposited data

How the results depend on the processing

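Over all settings except the replicate block, 0 of the 10 factors were called. The number of all genes called was 0 in the main test and with other scaling factors, a stricter filter (2 libraries with a CPM of 2 or more), limma-voom, robust estimation, the newer quasi-likelihood method and an adjusted p under 0.1. It was 52 with no filter, 48 with DESeq2, 458 with the replicate block and 0 to 2 without single libraries. The labels do not say that the replicate number marks a shared animal or day, but the deviations of libraries with the same number had a correlation of 0.641 across genes. With the replicate block edgeR called 1 factor, Satb1 (0.23 ± 0.07, adjusted p = 0.0493), on 1 residual degree of freedom, and no other factor (Prdm1 adjusted p = 0.109). This call stands beside the 458 of all 14274 tested genes that the same fit called. The block gave 0.13 ± 0.06 for Gata3 and 0.11 ± 0.06 for Foxo1, neither of them called.

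The median over the factors ran from -0.14 to 0.12 without single libraries. Without single libraries the values ran from -0.28 to 0.0090 for Bach2, -0.22 to 0.47 for Foxo1, -0.14 to 0.014 for Foxp3, -0.21 to 0.50 for Gata3, -0.22 to 0.086 for Ikzf2, -0.32 to 0.28 for Ikzf4, -0.13 to 0.076 for Irf4 and -0.10 to 0.10 for Maf. The sign turned without WT replicate 1 for Bach2, Foxp3, Ikzf2 (0.03) and Ikzf4, and without KO replicate 2 for Ikzf2 and Ikzf4 (0.09). It turned without WT replicate 2 for Foxo1, Gata3, Irf4 (0.02) and Maf (-0.07), and without KO replicate 1 for Foxo1 (-0.18), Gata3 (-0.18), Irf4 and Maf. Those fits have 1 library in a genotype, which is assumed to vary like the others, and they compare unequal mixes of the replicates. Prdm1 (0.08 to 0.28) and Satb1 (0.09 to 0.37) stayed above 0 in them. Without a library left out, all 10 factors kept their sign in each setting.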

Other observations

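In the authors' deposited table Junb, an AP-1 factor of effector Treg cells, had an adjusted p of 0.0116, although its libraries overlapped at 4902 and 4148 CPM in WT against 4420 and 4071 CPM in KO and edgeR gave a log2 fold change of -0.09 ± 0.13 (adjusted p = 1.00). Runx3, a partner of Foxp3, followed the replicate number as Gata3 and Foxo1 did, at 80.8 and 45.7 CPM in WT against 77.4 and 55.0 CPM in KO, and so did Bcl6, the follicular factor, at 153 and 94.9 CPM in WT against 139 and 94.95 CPM in KO. Uhrf1, which maintains DNA methylation in dividing cells, went the other way, at 24.1 and 45.2 CPM in WT against 25.1 and 52.3 CPM in KO. These genes were chosen after their values were seen.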
